A study of Mus musculus with 11 samples.

Results

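The organic ion transporters described here are 9 genes of the *Slc22* family, *Slc22a2*, *Slc22a5*, *Slc22a6*, *Slc22a7*, *Slc22a8*, *Slc22a12*, *Slc22a18*, *Slc22a19* and *Slc22a30*. They were taken by symbol from the 28692 genes counted, which hold 25 genes named *Slc22a*, and all 9 were found. Their transcripts were counted by droplet single cell RNA sequencing of the 3′ end (10x Chromium, 3′ v3) in mouse kidney suspensions made with a cold active protease. The 11 libraries fall into 3 groups. The 5 control libraries (Ctrl, N1, N2, AN1 and AN2) came from naive, not sham-operated, male C57Bl/6 mice aged 10 weeks. The 3 UIR libraries (UIR, UIR1 and UIR2) came from mice of that strain and sex 28 days after unilateral ischemia/reperfusion, in which the left renal pedicle was clamped for 30 min at that age. The 3 UUO libraries (UUO, UUO1 and UUO2), again from male C57Bl/6 mice operated on at 10 weeks, were taken 28 days after the left ureter had been ligated for good. The study used as many mice per group as there are libraries, but the labels do not tie a library to a mouse, so that p-values measure the spread between libraries.

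Proteins of the *Slc22* family carry charged small molecules, among them drugs, toxins and waste products, across cell membranes. In the proximal tubule (PT), Oat1 (*Slc22a6*) and Oat3 (*Slc22a8*) take organic anions up from the blood in exchange for dicarboxylates, and Oct2 (*Slc22a2*) takes up organic cations. Other members sit in the luminal membrane or serve single nutrients, such as Urat1 (*Slc22a12*), which reabsorbs urate, Oat5 (*Slc22a19*), an anion exchanger, and Octn2 (*Slc22a5*), the carnitine carrier. Oat2 (*Slc22a7*) carries anions and nucleobases, *Slc22a30* is a rodent member of the anion carrier branch, and *Slc22a18* is an imprinted gene whose substrates are not established. Cells that fail to recover after injury, failed repair tubular epithelial cells (frTECs), are known for the loss of transport genes.

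In GRCm38 coordinates, 5 of the 9 genes lie on chromosome 19. *Slc22a8* (chr19:8591254-8611835, plus strand) ends 6203 bases before *Slc22a6* (chr19:8618039-8628299, plus strand), and *Slc22a30* (chr19:8335371-8405111), *Slc22a19* (chr19:7673061-7711310) and *Slc22a12* (chr19:6535845-6543032, overlapped by *Nrxn2* on the other strand) are on the minus strand. *Slc22a2* (chr17:12584132-12628488, plus strand) and *Slc22a7* (chr17:46432183-46438457, minus strand) share chromosome 17, *Slc22a5* is at chr11:53864542-53891660 on the minus strand, and *Slc22a18* is at chr7:143473736-143499334 on the plus strand. RefSeq promoters of 300 bases (250 before to 50 after the start, GRCm38.p6) were matched for 8 of the 9 genes. RefSeq starts can differ from the gene coordinates above. The bases printed for *Slc22a8* lie inside that gene as given, and those for *Slc22a18* run past its given start. The motif search covers the RefSeq start only. The 150 bases before the start are printed for the neighbours *Slc22a6* (chr19:8617846-8617995, plus strand) and *Slc22a8* (chr19:8593032-8593181, plus strand), which lie next to each other and differ in their levels along the PT, and for *Slc22a18* (chr7:143473639-143473788, plus strand), the member with a higher call outside the PT.
Slc22a6: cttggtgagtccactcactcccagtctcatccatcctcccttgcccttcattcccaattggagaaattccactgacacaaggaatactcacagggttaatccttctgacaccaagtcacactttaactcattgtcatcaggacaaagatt
Slc22a8: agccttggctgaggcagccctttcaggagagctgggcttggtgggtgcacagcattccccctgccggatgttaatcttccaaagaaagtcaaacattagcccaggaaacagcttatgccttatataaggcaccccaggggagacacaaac
Slc22a18: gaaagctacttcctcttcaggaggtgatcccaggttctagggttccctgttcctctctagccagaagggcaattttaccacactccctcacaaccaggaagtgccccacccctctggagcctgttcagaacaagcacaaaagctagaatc
Short motifs were searched on both strands of the 300 bases. The GC box, spelled GGGCGG and found in 35.7% of 32851 RefSeq promoters of the same length, is present in *Slc22a5* and *Slc22a12*. None of the 8 holds the core of the HNF4 site, spelled CAAAGTCCA (0.475% of all promoters), or the TATA box, spelled TATAAA (13.6%). A match describes these letters only.

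The libraries held 49503312 to 117043590 unique molecular identifiers (UMIs, 1 per captured transcript). The authors deposited raw UMI counts of every barcode, from which cells were called, filtered and clustered anew, without the members among the clustering genes. The share of called barcodes over the limit of 30% mitochondrial UMIs was 56.9% to 79.0% in control, 23.8% to 37.4% in UIR and 3.15% to 8.0% in UUO libraries, so that the cells kept are a different fraction of each group. Libraries shared at most 18 cell barcodes (0.328% of the smaller library). Kept cells numbered 1858 to 2515 per control, 4009 to 7443 per UIR and 3801 to 5280 per UUO library. The 9 PT markers fixed for naming were each highest in the PT of all groups, 5 of 6 frTEC markers were highest in the frTECs, and loop of Henle cells kept 5 of 5, 4 of 5 and 3 of 5 of their markers in control, UIR and UUO. PT cells numbered 949 to 1220 per control library, 402, 659 and 307 in UIR, and only 18, 24 and 60 in UUO, UUO1 and UUO2. Below, UMIs of a class were summed per library into a pool of at least 20 cells and are given as counts per 1000000 UMIs of that pool (CPM). Pools were compared with edgeR's quasi-likelihood test, with a gene called at an adjusted p under 0.05 over all genes tested. The UUO library, with 18 PT cells of a median of 990.5 UMIs, is outside the PT tests.

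In control PT, all 9 members were detected in every library, and their levels along the segments followed several patterns. Sub-clusters of the PT were named S1-like (early) or S3-like (late) by markers. S1-like cells were 42.2% to 50.3% and S3-like cells 3.54% to 7.38% of control PT cells, and the rest stayed unnamed. Since the segments are clusters of these cells, the following values are descriptions. *Slc22a7* stood at 738 CPM ± 106 (SD, n = 5 libraries) in S3-like cells, at 80.5 ± 12.3 in the unnamed cells and at 2.25 ± 1.83 in S1-like cells. *Slc22a19* was graded in the same way, with 307 ± 30.2, 11.2 ± 3.51 and 0.617 ± 0.658 CPM. These levels in S3-like cells were a median of 730 and 701 times those in S1-like cells (over 4 libraries for *Slc22a19*, since the S1-like pool of N1 held none). *Slc22a8* ran the other way, with 257 ± 21.3 CPM in S1-like, 153 ± 14.0 in unnamed and 6.41 ± 2.90 in S3-like cells. *Slc22a6* was highest in the unnamed cells, at 754 ± 27.3 CPM, against 206 ± 35.9 in S1-like and 61.9 ± 22.0 in S3-like cells. *Slc22a2* stood at 73.4 ± 14.4 CPM in S1-like, 253 ± 33.2 in unnamed and 388 ± 57.8 in S3-like cells. *Slc22a12*, *Slc22a18* and *Slc22a30* were spread over all segments, with S3-like levels a median of 2.30, 1.79 and 1.49 times the S1-like ones. *Slc22a5* was low throughout, with 34.3 ± 6.86 CPM in S1-like and 10.1 ± 2.08 in S3-like cells.

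**Figure D1:**
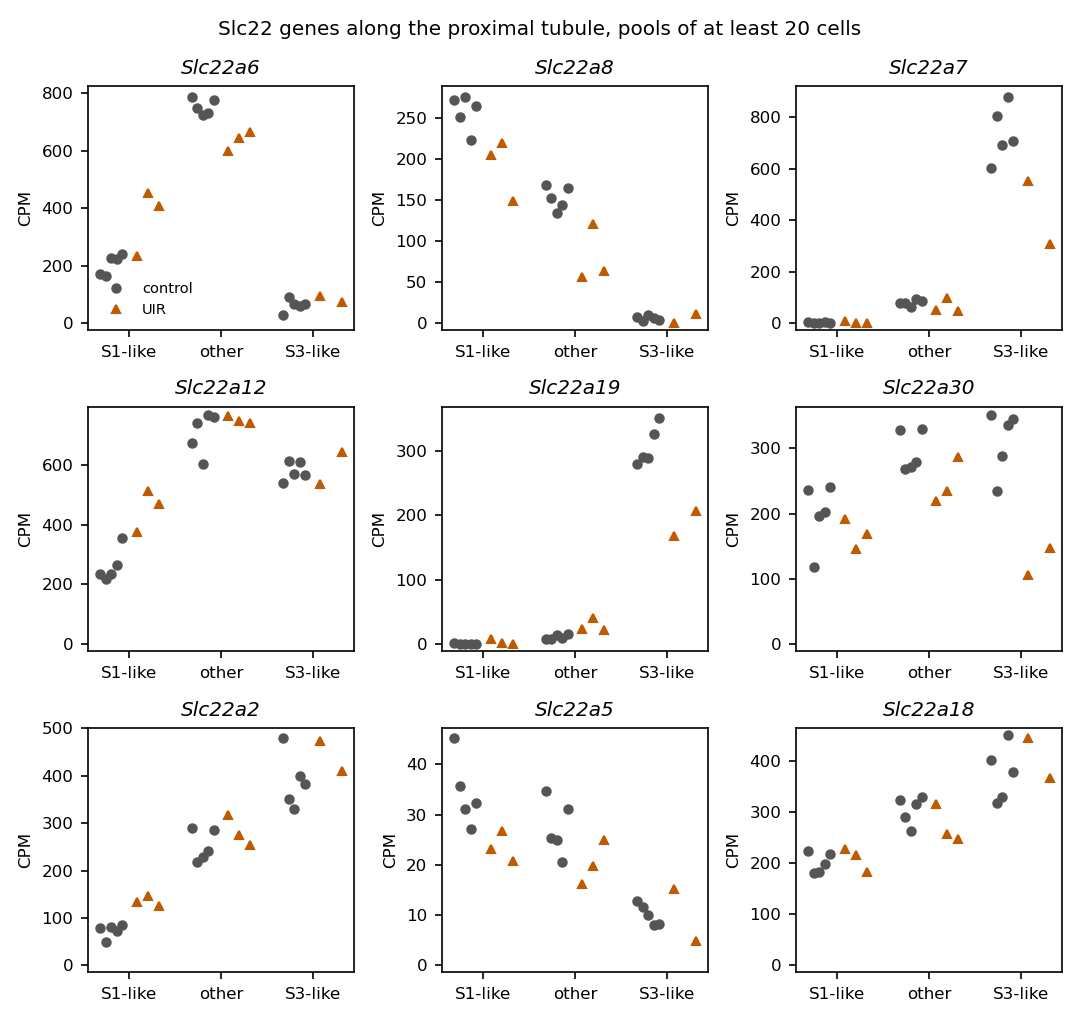
CPM of each member in S1-like, other (unnamed) and S3-like PT pools, 1 point per library with at least 20 cells (grey circles, 5 control libraries; orange triangles, 3 UIR libraries, or 2 in S3-like cells), on linear axes that include 0. *Slc22a7* and *Slc22a19* are highest in S3-like cells, *Slc22a8* in S1-like cells and *Slc22a6* in the unnamed cells.

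After UIR, *Slc22a8* was the 1 member of 9 that was called in PT as a whole, and it fell. Of the 11583 genes tested, 8.97% were called in this comparison (6.06% higher, 2.91% lower). Its levels were 185, 185, 196, 160 and 187 CPM in Ctrl, N1, N2, AN1 and AN2 and 121, 151 and 110 CPM in UIR, UIR1 and UIR2. Every UIR library lay below every control library. The log2 fold change was -0.50 (SE 0.12, edgeR adjusted p = 0.0139). Without the UIR library it was -0.47 (edgeR adjusted p = 0.0547) and without UIR2 -0.38 (edgeR adjusted p = 0.0978), so that the call rests on both, and it was also lost at a mitochondrial limit of 50% (-0.06), at a clustering resolution of 2 (-0.51, edgeR adjusted p = 0.0922), with low-depth cells and free RNA subtracted (-0.41, edgeR adjusted p = 0.157) and with every cell thinned to 1000 UMIs (-0.53, edgeR adjusted p = 0.0837; 1.53% of genes called).

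The other members did not pass the test in PT after UIR, though *Slc22a7* and *Slc22a30* were each called, lower, under 6 of 30 alternatives and *Slc22a5* under 5, *Slc22a7* and *Slc22a5* with low-depth cells included and *Slc22a30* with thinned cells. *Slc22a19* was called lower at a mitochondrial limit of 50% (-0.87) and turned to a positive value under 12 of the alternatives. *Slc22a6* had 466, 475, 449, 463 and 501 CPM in the control libraries and 392, 479 and 489 in UIR, groups that overlap (log2 fold change -0.04, SE 0.11, edgeR adjusted p = 0.860). *Slc22a7*, at 66.7 to 142 CPM in control and 70.9, 82.4 and 35.5 in UIR, had a log2 fold change of -0.72 (SE 0.26, edgeR adjusted p = 0.0974). *Slc22a30* was at 206 to 298 CPM in control and 198, 182 and 214 in UIR (-0.38, SE 0.13, edgeR adjusted p = 0.0740). For *Slc22a12* the levels were 423 to 586 and 567 to 625 CPM (0.20, SE 0.13), and for *Slc22a19* 19.8 to 43.3 and 20.4 to 46.0 CPM (-0.04, SE 0.27). The cation carrier gene *Slc22a2* had 156 to 237 CPM in control and 189 to 244 in UIR (0.22, SE 0.14), and *Slc22a18* had 228 to 297 and 218 to 285 (-0.08, SE 0.12). *Slc22a5*, the carnitine carrier gene, was at 21.8 to 35.7 CPM in control and at 19.4, 20.9 and 21.8 in UIR (-0.45, SE 0.14, edgeR adjusted p = 0.0594). The median log2 fold change was -0.08 over the 9 members and -0.01 over all genes tested.

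**Figure D2:**
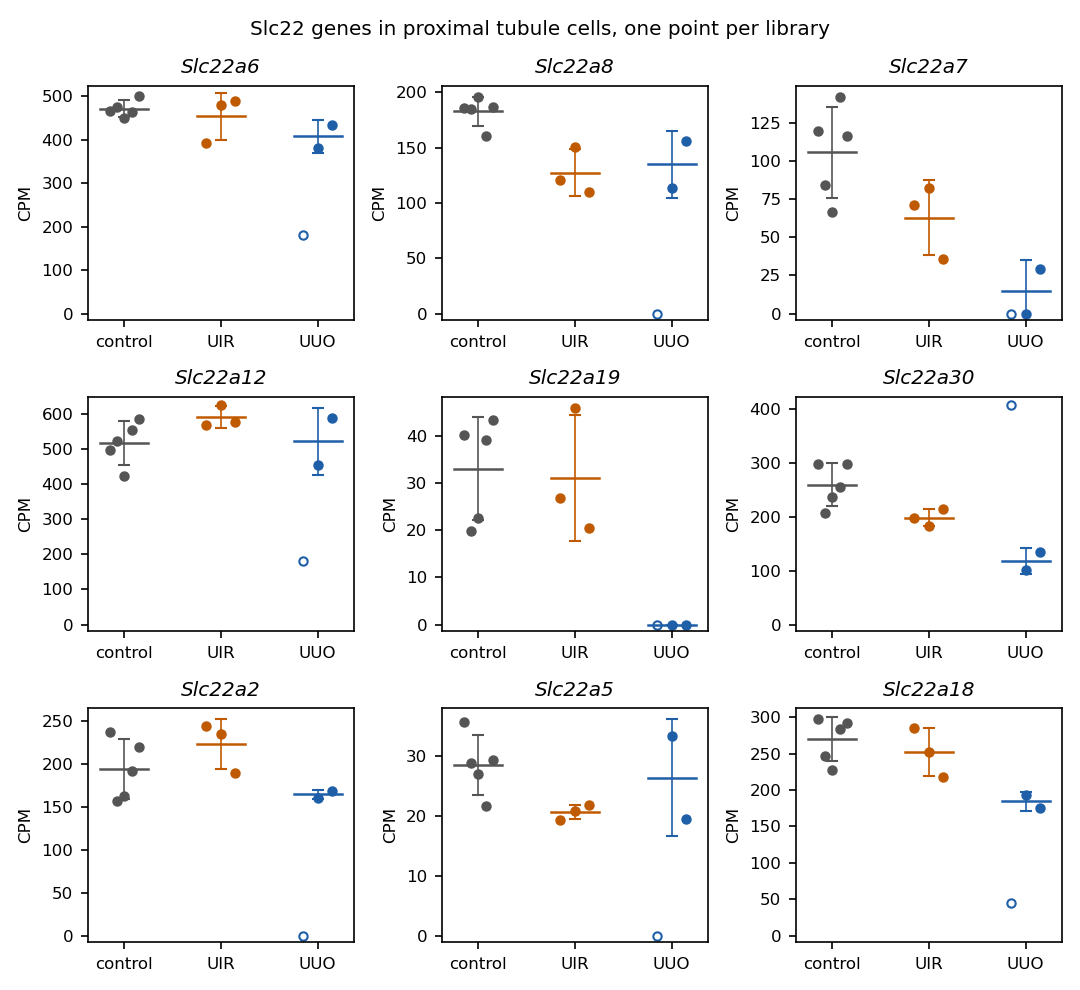
CPM of each member in PT, 1 point per library (control n = 5, UIR n = 3, UUO n = 3), with the mean as a line and the SD as a bar over pools of at least 20 cells; the open point is the UUO library of 18 cells, on linear axes that include 0. For *Slc22a8* the 3 UIR libraries, at 110 to 151 CPM, sit below the 5 control libraries, at 160 to 196.

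In UUO, the few PT cells left had lower levels of *Slc22a30* and *Slc22a18*, the 2 members called of 9, both lower (background 3.5% of 11583 genes, 1.51% lower). *Slc22a30* had 298, 206, 236, 255 and 297 CPM in control and 100 and 134 in UUO1 and UUO2, which lay below every control library. The UUO library, outside the test, stood at 406 CPM, above all of them, and at 177 (2 UMIs) without the 10 of its 18 cells that fell in sub-cluster 10, described below. Without that sub-cluster UUO1 had 19 cells, so that UUO2 alone was left, with 136 CPM of *Slc22a30*, below the control libraries (204 to 297). A fit with 1 UUO library is not given as a test there. The log2 fold change was -1.23 (SE 0.22, edgeR adjusted p = 0.00300). It was no longer called without UUO1 (-1.07, edgeR adjusted p = 0.0582), nor at mitochondrial limits of 50% (-0.28) or 15% (-1.01), with at least 1000 UMIs per cell (-0.58), with doublets kept (-0.67) or with thinned cells (-0.55). *Slc22a18* had 297, 247, 228, 284 and 292 CPM in control, 194 and 176 in UUO1 and UUO2 and 45.1 in the UUO library (found in 1 cell), with no overlap. Its log2 fold change was -0.73 (SE 0.19, edgeR adjusted p = 0.0416), and the call was lost under 17 of 30 alternatives, with values from -1.04 to -0.44, among them those without Ctrl, AN1, AN2, UIR1, UUO1 or UUO2. Without UUO1 or UUO2, and with thinned cells, UUO is a single library that is assumed to vary like the other groups. The PT cells of the groups lay in different sub-clusters. Sub-cluster 5, with 491 CPM of *Slc22a30* in control cells, held 21.2% to 29.2% of the PT UMIs in control, none in UUO1 and 11.9% in UUO2, sub-cluster 4 (263 CPM) held 13.5% to 22.4% in control and none in UUO, and sub-cluster 12 (124 CPM) held 0% to 4.70% in control, 32.99% in UUO1 and 28.1% in UUO2. Within sub-clusters *Slc22a30* was lower in UUO than in control cells in some (58.6 against 134 CPM in sub-cluster 3, 328 against 491 in sub-cluster 5) and higher in others (145 against 71.5 in sub-cluster 2, 170 against 124 in sub-cluster 12), with 4, 16, 5 and 28 UMIs in UUO. How much of the difference lies within sub-clusters was not tested.

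The S3 genes were the least detected members in UUO. No UMI of *Slc22a19* was found in any of the 3 UUO libraries, against 33.0 CPM ± 10.9 (SD, n = 5) in control. With a floor of 3 counts over the group, it was at least 6.72-fold lower, and in edgeR it was not called (adjusted p = 0.0881). *Slc22a7* had 0, 0 and 29.3 CPM in UUO, UUO1 and UUO2 against 66.7 to 142 in control (log2 fold change -2.48, SE 0.70, edgeR adjusted p = 0.0603). *Slc22a7* was called under 15 of 30 alternatives and *Slc22a19* under 9, among them the inclusion of low-depth PT-like cells, with edgeR adjusted p-values of 0.0149 and 0.0373 (4.47% of genes called). All 12 UMIs of *Slc22a7* in UUO came from UUO2, so that this library alone sets the size of its fold change. None of them lay in S3-like cells. The UUO libraries held 0, 2 and 3 S3-like cells. In UUO1 and UUO2 these were 8.33% and 5.0% of the PT cells and 22.8% and 11.2% of the PT UMIs, against 3.54% to 7.38% and 5.18% to 12.8% in control. Shares from 2 and 3 cells are uncertain, and the UUO library had 0 among 18 PT cells. The part of S3-like cell numbers in these values was not tested. In these 5 cells summed, *Slc22a7* was at least 19.1-fold and *Slc22a19* at least 8.23-fold lower than in control S3-like cells. These bounds cover counting error only. Other members were lower there too. In UUO1 and UUO2 these cells had 58.5 and 326 CPM of *Slc22a12*, 117 and 239 of *Slc22a2* and 29.3 and 196 of *Slc22a18*. Control cells of the same sub-cluster (8, described below) had 461 to 586, 325 to 500 and 298 to 447 CPM.

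The remaining members were not called in UUO, though *Slc22a6* was called lower without sub-cluster 12 (-0.74, edgeR adjusted p = 0.0148; 2.24% of genes called) and *Slc22a8* (-0.68) and *Slc22a5* (-1.18) with doublets kept. *Slc22a6* was at 381 and 434 CPM in UUO1 and UUO2, both below the control range of 449 to 501, and at 180 in the UUO library (log2 fold change -0.36, edgeR adjusted p = 0.211). *Slc22a8* had 114 and 156 CPM, and 0 in the UUO library (-0.52, edgeR adjusted p = 0.196). *Slc22a12* (454 and 588 CPM), *Slc22a2* (160 and 168) and *Slc22a5* (33.4 and 19.5) had log2 fold changes of -0.12, -0.39 and -0.44. The median over the members was -0.52, against -0.09 over all genes. None of the 9 was called between UUO and UIR in edgeR, where 0.285% of genes were; 5 of the 9 had an unadjusted p under 0.05, as had 1157 of all 11583 genes, and DESeq2 called *Slc22a19* alone (0.786% of genes). PT in UUO also had higher frTEC markers than control PT, with summed levels of the 6 genes of 290.2 to 781 CPM against 16.1 to 29.7 in control and 72.0 to 138 in UIR, and all 6 were higher in both models. The 7 markers of macrophages and dendritic cells summed to 6.01 to 10.6 CPM in control, 30.7 to 41.5 in UIR (7 of 7 higher, *Flt3* being at 0 in control) and 46.3 to 53.4 in UUO (3 of 7 higher, with *Clec9a*, *Xcr1* and *Flt3* at 0). Stroma markers (6) summed to 8.49 to 11.3 CPM in control, 15.4 to 24.5 in UIR (6 higher) and 12.2 to 33.4 in UUO (5 higher, *Pdgfrb* at 0). Endothelial markers (5) summed to 1.95 to 3.96, 6.15 to 9.26 (5 higher) and 0 to 12.2 CPM (3 higher, *Pecam1* and *Flt1* at 0), and T and NK cell markers (4) to 0 to 0.478, 2.79 to 6.65 (4 higher) and 0 to 13.4 CPM (1 higher, *Cd3g*, *Cd3e* and *Cd8a* at 0). The 9 PT markers summed to 9320 to 11792 CPM in control, 9189 to 9419 in UIR and 6599 to 8004 in UUO (1 of 9 higher in each model), and the 4 S1 markers to 683 to 831, 589 to 718 (1 of 4 higher) and 147 to 161 (0 of 4). The part of these in the transporter values was not tested.

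**Figure D3:**
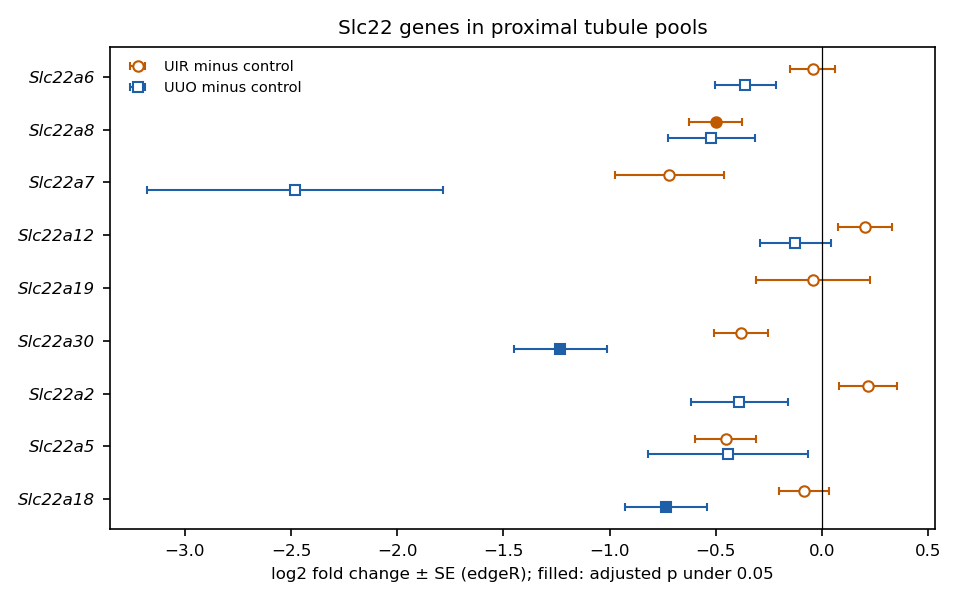
Log2 fold change of each member in PT pools (points) with its standard error (bars) from edgeR, for UIR against control (orange circles) and UUO against control (blue squares), with filled symbols at an adjusted p under 0.05; *Slc22a19* in UUO, without a UMI, is not drawn. *Slc22a8* in UIR (-0.50) and *Slc22a30* (-1.23) and *Slc22a18* (-0.73) in UUO are filled.

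Among S1-like cells of UIR kidneys, *Slc22a2*, *Slc22a12* and *Slc22a6* rose and *Slc22a8* and *Slc22a5* fell, 5 of the 9 members tested, where 16.4% of 11078 genes were called. *Slc22a2* had 78.4, 49.0, 81.4, 72.8 and 85.5 CPM in control and 133, 146 and 124 in UIR (log2 fold change 0.89, SE 0.14, edgeR adjusted p = 2.57e-04). *Slc22a12* had 234, 218, 233, 265 and 356 CPM in control and 374, 513 and 469 in UIR (0.82, SE 0.15, edgeR adjusted p = 7.98e-04). For both, the groups did not overlap. *Slc22a6* had 171, 164, 228, 224 and 242 CPM in control and 234, 454 and 408 in UIR, where the UIR library lay within the control range (0.86, SE 0.18, edgeR adjusted p = 0.00269). *Slc22a8* was at 222 to 275 CPM in control and at 205, 219 and 148 in UIR (-0.40, edgeR adjusted p = 0.0344), and *Slc22a5* at 27.0 to 45.2 and 20.7 to 26.7 CPM (-0.50, edgeR adjusted p = 0.0430). *Slc22a6*, *Slc22a12* and *Slc22a2* were called without any 1 library. *Slc22a8* was not called without N1, N2, AN2 or UIR2, nor *Slc22a5* without Ctrl, N1, AN2, UIR or UIR2.

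The S1-like calls depended on the cells counted. At a mitochondrial limit of 50% and with doublets kept none of the 5 members was called, and at a clustering resolution of 2 *Slc22a8* alone was. *Slc22a2* turned to -0.08, -0.47 and -0.26 under these 3 settings and *Slc22a6* to -0.34 with doublets kept and at resolution 2, while *Slc22a12* stood at 0.27, 0.31 and 0.12. Sub-cluster 12 held 155 PT cells with 8.08 times the median depth of their own libraries, led by *C3*, *Cd74*, *Spp1* and *C4b*. It had 19 control, 130 UIR and 6 UUO cells, and made up 34.0% to 66.5% of the S1-like UMIs in UIR against 0% to 12.9% in control. Within it, *Slc22a6* stood at 530 CPM in UIR and 234 in control cells and *Slc22a2* at 189 and 102. S3 markers summed to 2126 to 2220 CPM in S1-like UIR pools against 1131 to 1408 in control, and to 1149 to 1457 without sub-cluster 12. S1 markers summed to 1162 to 1191 CPM in the S1-like UIR pools against 1609 to 1803 in control (0 of 4 higher), frTEC markers to 70.2 to 151 against 6.22 to 19.0 (6 of 6) and those of macrophages and dendritic cells to 28.8 to 37.1 against 3.26 to 5.37 (7 of 7, *Flt3* being at 0 in control). Stroma markers summed to 16.8 to 34.96 against 10.3 to 14.7 CPM (6 of 6), and the part of all these in the S1-like values was not tested. Without it, none of the 7 members tested was called in edgeR (1.67% of 10145 genes were). *Slc22a2* was then at 52.3, 89.4 and 57.2 CPM in UIR against 49.0 to 83.7 in control, and its log2 fold change turned to -0.16. That of *Slc22a6* turned to -0.08, with 117, 264 and 212 CPM against 164 to 237. Those of *Slc22a12* (0.31), *Slc22a8* (-0.29) and *Slc22a5* (-0.49) kept their sign, and *Slc22a12* was higher in the UIR cells of sub-clusters 0 (262 against 171 CPM) and 1 (377 against 253) as well, and lower in those of sub-cluster 10 (243 against 456). Without sub-cluster 10, described below, *Slc22a6*, *Slc22a12* and *Slc22a2* were called and *Slc22a8* and *Slc22a5* were not (15.8% of 10112 genes were called). With cells thinned to 1000 UMIs, *Slc22a12* alone was called (0.70, edgeR adjusted p = 0.0128; 1.84% of genes called). For the fall of *Slc22a8* in PT as a whole, leaving out sub-cluster 12 moved the log2 fold change to -0.67 (edgeR adjusted p = 0.00266; 4.89% of genes called).

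**Figure D4:**
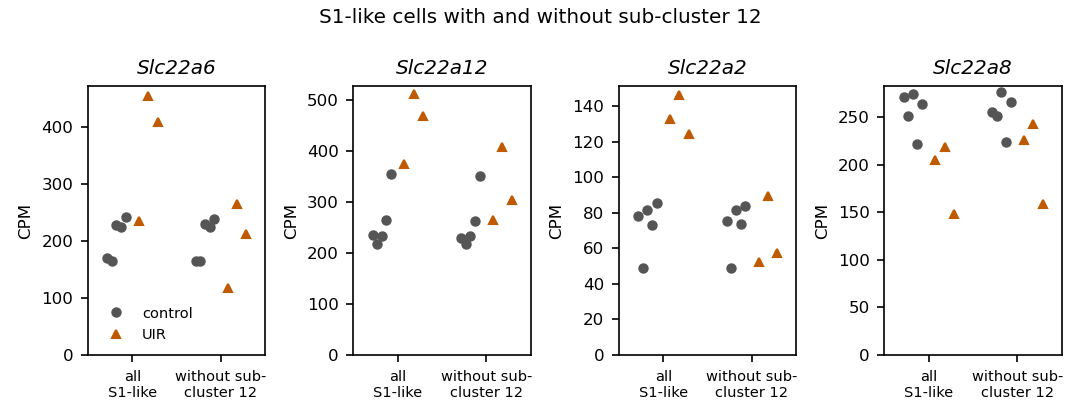
CPM of 4 members in S1-like pools with all cells and without sub-cluster 12, 1 point per library (grey circles, 5 control; orange triangles, 3 UIR), on linear axes that include 0. The UIR libraries lie above control for *Slc22a12* and *Slc22a2* with all cells and overlap with control without the sub-cluster.

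In the unnamed PT cells, which passed the marker rule of neither segment, UIR left *Slc22a19* higher and *Slc22a8* lower, with 3.73% of 10869 genes called. *Slc22a19* had 7.94, 8.90, 14.2, 9.22 and 15.7 CPM in control and 23.1, 41.3 and 22.7 in UIR, with no overlap (log2 fold change 1.46, SE 0.25, edgeR adjusted p = 7.54e-04). *Slc22a8* had 168, 152, 134, 144 and 164 CPM in control and 56.3, 121 and 64.2 in UIR (-0.86, SE 0.18, edgeR adjusted p = 0.00492). Without UIR1, *Slc22a19* was no longer called, and without UIR2, *Slc22a8* was not. At mitochondrial limits of 15% or 50%, neither was, and at 50% *Slc22a7* was called instead. By sub-cluster, *Slc22a8* went from 166, 147, 146 and 103 CPM in the control cells of the unnamed sub-clusters 5, 6, 3 and 2 to 83.8, 59.8, 76.2 and 71.4 in their UIR cells. In the unnamed sub-cluster 7 it had 153 and 154 CPM, and in sub-cluster 15, with 22 control and 15 UIR cells, 77.1 and 296. Among the S1-like sub-clusters it had 153 and 152 CPM in sub-cluster 0, 194 and 197 in sub-cluster 1 and 269.9 and 244 in sub-cluster 4, and it was lower in UIR cells of sub-clusters 10 (294 and 77.4), 11 (486 and 326) and 12 (325 and 178). These sub-cluster values are descriptions without a test. Markers of other cells were higher in the same UIR pools, those of frTECs at 60.7 to 83.8 CPM against 16.6 to 24.8 in control (6 of 6), of macrophages and dendritic cells at 29.4 to 40.5 against 5.84 to 8.29 (7 of 7, with *Xcr1*, *Clec10a* and *Flt3* at 0 in control), of endothelium at 6.25 to 10.5 against 0.835 to 3.89 (5 of 5), of stroma at 14.2 to 15.1 against 5.20 to 9.18 (5 of 6) and of T and NK cells at 2.27 to 9.38 against 0 to 0.507 (4 of 4). Their part in the transporter values was not tested. *Slc22a6*, highest in the unnamed cells, had 725 to 787 CPM in control and 598, 643 and 665 in UIR without being called (-0.22, edgeR adjusted p = 0.302). UUO left a single pool of 37 cells here, in UUO2, whose values are given without a test. In it *Slc22a6* had 369 CPM against 725 to 787 in control, and *Slc22a30* 128 against 269 to 330. The single S1-like pool of UUO2, of 20 cells, went the other way for *Slc22a6*. Its level in unnamed cells was 0.589 times that in S1-like cells in UUO2, and 3.18 to 4.61 times in control. *Slc22a6* and *Slc22a12* were both higher in these S1-like cells than in control ones, again in 1 library. Of the 20 cells, 4 fell in sub-cluster 12 and held 68.1% of the UMIs of this pool. Their part in these values was not tested.

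In S3-like cells, 3 of the 8 members tested were called after UIR and all 3 fell, where 3.2% of 6875 genes were called (1.72% lower). *Slc22a7* had 604, 806, 694, 878 and 709 CPM in control and 553 and 309 in UIR and UIR1 (log2 fold change -0.83, SE 0.22, edgeR adjusted p = 0.0302). *Slc22a19* had 279, 290, 289, 326 and 350 CPM in control and 168 and 207 in UIR (-0.72, SE 0.20, edgeR adjusted p = 0.0364). *Slc22a30* had 351, 235, 289, 335 and 345 CPM in control and 107 and 148 in UIR (-1.30, SE 0.22, edgeR adjusted p = 4.40e-04). Each UIR pool lay below each control pool, and the 9 cells of UIR2, too few for the test, had 357, 238 and 199 CPM of the 3 genes. Without AN1, AN2 or UIR1, *Slc22a30* alone was called, without UIR *Slc22a19* was not, and no member was at mitochondrial limits of 50% or 15%. At resolution 2 *Slc22a30* alone was (-0.67), and *Slc22a19* turned to 0.33 there and to 1.09 at 15%. In the same pools the markers of macrophages and dendritic cells summed to 57.2 to 59.4 CPM in UIR and 28.98 to 47.2 in control (3 of 7 higher, *Clec9a*, *Xcr1*, *Clec10a* and *Flt3* at 0 in both), those of T and NK cells to 3.64 to 7.63 against 0 (3 of 4 higher, *Cd3e* at 0) and those of frTECs to 153 to 292 against 52.2 to 277 (5 of 6 higher), and their part was not tested. S3-like cells were a mixture of 2 sub-clusters that differ in *Slc22a30*. Sub-cluster 13, with 5.60 times the median depth of its libraries, had 538 CPM in its 70 control cells, and sub-cluster 8 had 158 CPM in 251 control cells. UIR kidneys held 2 cells of the former and 102 of the latter, and sub-cluster 13 made up 30.01% to 50.6% of the S3-like UMIs in control and none in UIR and UIR1. In UIR2, outside the test, its 2 cells made up 39.7%, within the control range. Within sub-cluster 8 alone, *Slc22a30* overlapped between groups, at 127 to 173 CPM in the control libraries and 107, 148 and 169 in UIR. *Slc22a19* and *Slc22a7* did not overlap there, with 264 to 365 against 168 to 207 CPM for *Slc22a19*, and 660 to 872 against 113 to 553 CPM for *Slc22a7*, in which the lowest UIR value rests on 7 cells. In sub-cluster 13 the 2 cells of UIR2 had 243 CPM of *Slc22a30*, against 473 to 624 in the control libraries. Their *Slc22a7* (730 CPM) and *Slc22a19* (329) lay within the control ranges of 543 to 883 and 296 to 342.

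The level of *Slc22a30* differed between sub-clusters of the PT. Among the control cells, its highest level over the pooled libraries was 980 CPM in the 129 cells of sub-cluster 10. This sub-cluster was placed with the S1-like cells by its marker score, but its 10 leading genes, among them *Gm26870*, *Gm26917* and *Kcnq1ot1*, hold no S1 marker and 1 of the distal tubule (*Slc12a3*), and its depth was 0.408 of the library median. Of the 129 cells 90 came from Ctrl, the library whose empty droplets held the most *Slc22a30* (179.6 CPM against 27.6 to 35.4), and the sub-cluster stood at 976 CPM in Ctrl, 863 in N1, 369 in N2, 1352 in AN1 and 578 in AN2, where it rests on 179, 11, 2, 33 and 5 UMIs. Next came sub-clusters 13 (538 CPM), 5 (491), 11 (490) and 4 (263), with depths of 5.60, 5.34, 3.44 and 2.98 times the median. The deepest, sub-cluster 12 (8.08 times), had 124 CPM, and sub-cluster 3 (2.22 times) 134. S1-like sub-clusters 0 and 1 had 22.1 and 35.3 CPM. In UIR cells of sub-cluster 10, *Slc22a30* was at 476 CPM (64 cells) and *Slc22a8* at 77.4, against 294 in control.

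In frTECs, the transporters were at low levels. The class joined clusters of different kinds. For those of 240 and 164 cells the next class by marker score was PT, and for that of 280 cells it was stroma. Their shares in UIR and UUO are not reported here. Control libraries had 2 to 8 such cells each, too few for a pool, so only UIR (50, 334 and 101 cells) and UUO (40, 114 and 23 cells) were compared. *Slc22a18* had 42.3, 53.7 and 9.90 CPM in UIR and 0, 34.8 and 0 in UUO. *Slc22a6* had 10.6, 32.6 and 1.98 CPM in UIR and 5.85, 23.4 and 0 in UUO, and *Slc22a2* 31.7, 25.05 and 3.30 in UIR and 3.90, 28.3 and 13.3 in UUO. *Slc22a12* stood at 13.2 to 38.9 CPM in UIR and 1.95 to 15.6 in UUO. *Slc22a7*, with 1 UMI in UIR and none in UUO, and *Slc22a19*, with 1 and 2 UMIs, were close to absent. UIR1 and UUO1 held the highest *Slc22a6*, *Slc22a12* and *Slc22a18* of their models. Of the 4 members that passed the low count filter, none was called between UUO and UIR, and 0% of 9495 genes were called by edgeR (186 had an unadjusted p under 0.05). With no gene called, this does not show equal levels, and 1 member was called with doublets kept. The levels moved with those of PT genes found in free RNA (*Slc34a1*, *Miox*, *Gatm*, *Acsm2*, *Ass1* and *Fbp1*), whose sum was 429.6 to 1774 CPM in UIR and 78.0 to 583 in UUO frTECs. Scaled to these genes, free RNA could make up at most 33.6%, 76.6% and 22.7% of the UIR, UIR1 and UIR2 pools. For the UUO, UUO1 and UUO2 pools it was 10.9%, 100% (a cap) and 12.3%. In UUO1 the genes summed to 282 CPM in empty droplets, below the 583 in its frTECs. The same scaling gave 6.26% and 5.53% in the loop of Henle pools of UIR1 and UUO1. It counts every UMI of these genes as free RNA, though some frTEC clusters resemble PT. The ratios below thus do not separate free RNA from transcripts of the frTECs. The UMIs of *Slc22a6* were 0.548 and 1.15 times the expectation from free RNA in UIR and UUO pools, those of *Slc22a18* 1.65 and 2.89 times and those of *Slc22a2* 1.31 and 5.44 times.

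Outside the PT, the members' levels have to be read beside free RNA, the transcripts released from broken cells that reach all droplets. In the empty droplets of the Ctrl library all 9 members stood far above those of the other control libraries, for example *Slc22a6* at 367 CPM against 79.0 to 84.5, and so did the sum of the 6 free RNA genes, at 9954 against 2745 to 3322 CPM. UIR empty droplets had 43.2 to 105 CPM and UUO ones 20.1 to 34.2 CPM of this gene. In endothelial cells, which should lack it, *Slc22a6* stood at 5.98 to 21.3 CPM in control, 3.19 to 7.76 in UIR and 0.456 to 2.08 in UUO.

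In the loop of Henle, *Slc22a6*, *Slc22a12* and *Slc22a30* fell in both models and *Slc22a8* in UUO, with 30.6% and 36.3% of 11467 genes called in UIR and UUO. *Slc22a6* had 14.1, 9.34, 5.20, 0 and 7.10 CPM in control, 3.16, 2.98 and 1.39 in UIR (log2 fold change -1.84, edgeR adjusted p = 0.0237) and 0.373, 0 and 0.351 in UUO. The 3 UMIs in UUO give a ratio to control of 0.0282 (95% interval 0.00523 to 0.0997). *Slc22a12* had 8.43 to 16.6 CPM in control, 2.68 to 4.02 in UIR (-2.09, edgeR adjusted p = 3.43e-04) and 0.179 to 0.746 in UUO (-4.94, edgeR adjusted p = 2.67e-07). *Slc22a30* had 0 to 8.81 CPM in control and 0.696 to 2.10 in UIR (-2.14, edgeR adjusted p = 0.0284), and *Slc22a8* 0 to 7.10 CPM in control and 0, 0 and 1.40 in UUO. In principal cells *Slc22a6* had 3.42 to 11.6 CPM in control and 1.496 to 4.20 in UIR (-1.86, edgeR adjusted p = 0.0236), and without a UMI in UUO it was at least 17.5-fold lower. *Slc22a12* in intercalated cells had no UMI in UUO either and was at least 15.6-fold lower than in control, where it had 0 to 14.1 CPM. The called share of genes was 13.9% and 31.2% in principal and 13.6% and 25.7% in intercalated cells of UIR and UUO. In these 3 classes, 5 member and class pairs were called in UIR and 7 in UUO. The low count filter left 6 members in the loop of Henle and 2 each in principal and intercalated cells. Those called lower passed it through the control pools, where they were highest, so that these counts are not a result about the members. Without Ctrl, *Slc22a12* in the loop of Henle was the 1 pair left in UIR, without UIR2 it and *Slc22a18* were the 2 left, and without the UUO library 4 were called in UUO. The free RNA genes moved in the same direction, with sums of 244 to 386 CPM in control, 57.7 to 145 in UIR and 15.6 to 28.1 in UUO loop of Henle pools. The level of *Slc22a6* that free RNA alone would give in these pools was 6.11 to 14.2, 1.32 to 4.50 and 0.976 to 1.26 CPM. After subtraction of free RNA, 2 pairs of the 3 classes were called in UIR and 3 in UUO, all of *Slc22a18* and all higher.

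*Slc22a18* was the 1 member with a higher call in the distal classes, in the loop of Henle after UIR and in principal cells after UUO, 2 of 8 comparisons with control. Of all genes, 16.7% and 15.9% were called higher in these 2. In principal cells it passed the low count filter through the UIR and UUO pools, so that this count is not a result about the member. The 8 comparisons include clusters with markers of both distal tubule and principal cells, in which no member was called higher. *Slc22a6*, *Slc22a8*, *Slc22a12* and *Slc22a30* were called lower there in both models, 4 of 6 tested (22.8% and 28.8% of genes called). These 4 were highest in the control pools, where they could pass the filter, so that their count is not a result about them either. *Slc22a18* had 0 to 38.7 CPM there in control, 13.97 to 16.0 in UIR and 16.8 to 19.9 in UUO, and its log2 fold changes were negative (-0.66 and -0.42) and not called. Control cells of these clusters were shallow, with medians of 962 to 1677 UMIs per library, against 3529 to 8602.5 in UIR and 12658.5 to 21503 in UUO. Free RNA made up 14.6% to 26.2% of the control, 4.36% to 7.99% of the UIR and 3.36% to 5.47% of the UUO pools. Calls in these clusters after its subtraction are not reported here. In the loop of Henle it had 5.29, 0, 2.60, 11.2 and 16.6 CPM in control, 20.9, 21.6 and 22.4 in UIR (log2 fold change 1.26, SE 0.39, edgeR adjusted p = 0.0147) and 18.8, 15.1 and 12.3 in UUO (0.80, edgeR adjusted p = 0.138). In principal cells it had 10.3, 15.6, 0, 1.45 and 9.73 CPM in control, 19.2, 13.4 and 15.7 in UIR (0.98, edgeR adjusted p = 0.170) and 27.9, 18.6 and 22.2 in UUO (1.46, SE 0.42, edgeR adjusted p = 0.0104). Intercalated cells had 0 to 11.9, 9.65 to 14.5 and 11.3 to 21.9 CPM, without a call. The call in the loop of Henle was lost without Ctrl (1.09, edgeR adjusted p = 0.0728) or N2 (1.06, edgeR adjusted p = 0.0557), and that in principal cells without the UUO library (1.25, edgeR adjusted p = 0.0598). The control pools were small, with 15, 22 and 20 UMIs of the gene in the 3 classes, 1.19, 1.58 and 1.31 times what free RNA alone would give. The UIR pools held 11.9, 8.29 and 5.28 times that level and the UUO pools 22.4, 37.3 and 35.0 times. With free RNA subtracted, the gene was called in loop of Henle cells, higher in UIR (2.22, edgeR adjusted p = 0.00232) and UUO (1.84, edgeR adjusted p = 0.0126), in principal cells in UIR (1.89, edgeR adjusted p = 0.0250) and UUO (2.55, edgeR adjusted p = 5.73e-04), and in intercalated cells in UUO (2.13, edgeR adjusted p = 0.0116). Subtraction stops at 0, and free RNA was higher in control, so that subtraction by itself widens these differences. In loop of Henle cells the free RNA level exceeded the measured one in Ctrl (10.8 against 5.29 CPM), N1 (6.78 against 0) and N2 (4.46 against 2.60). These control pools were thus set to 0. In the intercalated cells the direction of *Slc22a18* reversed at a mitochondrial limit of 15% (-1.77 in UIR and -1.51 in UUO). *Slc22a5* also stood above free RNA in these classes, and in all groups. In the loop of Henle it had 2.37 to 11.2 CPM in control, 3.68 to 6.16 in UIR and 3.17 to 5.26 in UUO, 9.07, 20.1 and 22.8 times what free RNA gives. It was not called there (-0.58 in UIR and -0.72 in UUO) and did not pass the low count filter in principal and intercalated cells. Markers of other cells moved in the same pools. In the loop of Henle the 6 frTEC markers summed to 57.2 to 132 CPM in control (*Vcam1*, *Cp*, *Akap12* and *Havcr1* at 0), 392 to 533 in UIR and 492 to 675 in UUO, with 6 of 6 higher in both. The 7 markers of macrophages and dendritic cells summed there to 0 to 4.67, 20.3 to 35.8 and 31.1 to 39.1 CPM (7 of 7 higher in both; 5 at 0 in control, *C1qc* among them) and the 4 of T and NK cells to 0 in control, 2.24 to 6.22 in UIR and 3.16 to 3.92 in UUO. In principal cells frTEC markers summed to 64.9 to 122, 118 to 282 (5 of 6 higher) and 247 to 278 CPM (4 of 6), and those of macrophages and dendritic cells to 0 to 14.2, 14.1 to 31.9 and 28.9 to 40.7 (5 of 7 in both). Their part in the values of *Slc22a18* was not tested.

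**Figure D5:**
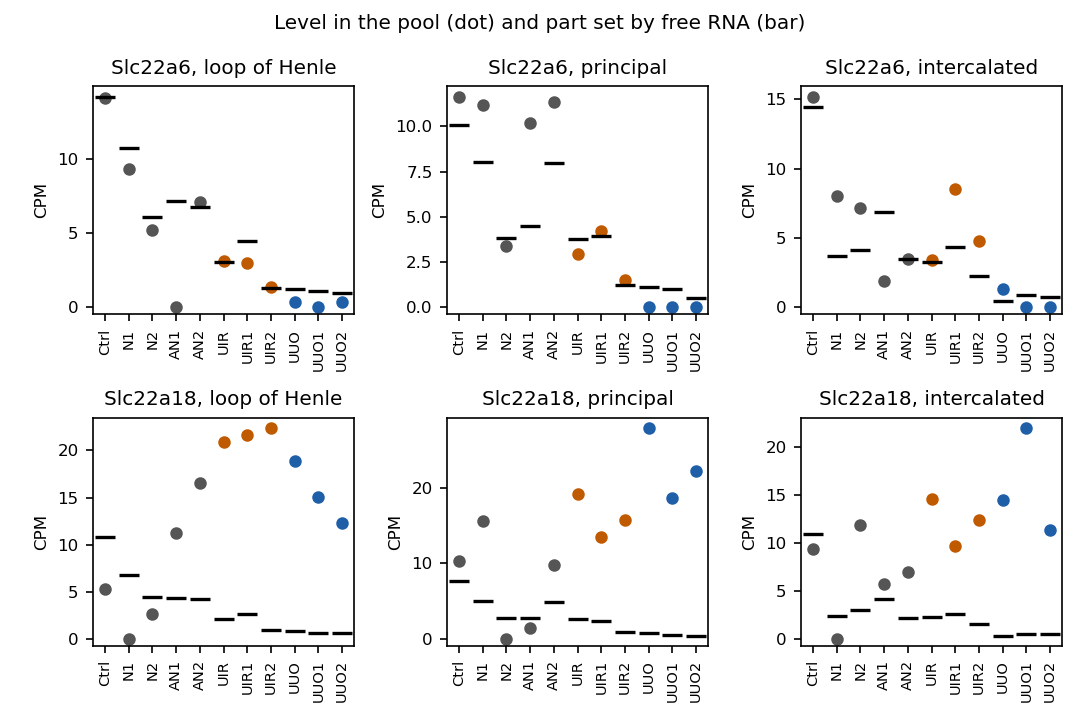
CPM of *Slc22a6* and *Slc22a18* in loop of Henle, principal and intercalated pools of the 11 libraries (dots; grey control, orange UIR, blue UUO) and the CPM that free RNA alone would give (black bars), on linear axes that include 0. The dots of *Slc22a6* lie on both sides of the bars, and those of *Slc22a18* lie above them in the UIR and UUO libraries.

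Of the partners of organic ion transport in PT (22 genes for luminal export, dicarboxylate supply, urate and the scaffold of the brush border), 20 could be tested. *Slco2b1*, an organic anion transporter gene of 2.38 CPM in control, fell in UIR (log2 fold change -1.45, edgeR adjusted p = 0.0425) and no other passed, 1 of 20 where 8.97% of all genes were called. In UUO, 4 of 20 were called, against 3.5% of all genes. *Slc13a1*, the sulfate cotransporter gene, rose from 447 ± 102 CPM (SD, n = 5) to 1120 ± 130 (n = 2; 1.16, edgeR adjusted p = 0.00264). *Slco1a1*, an anion carrier gene, fell from 262 to 73.9 CPM (-2.08, edgeR adjusted p = 0.0456). *Slc17a3*, a urate and anion exporter gene, fell from 315 to 207 CPM (-0.79, edgeR adjusted p = 0.0143), and *Pdzk1*, the scaffold gene, from 515 to 387 (-0.58, edgeR adjusted p = 0.0218). With low-depth cells *Slco2b1* and *Slc13a1* were not called, with thinned cells none of 16 was, and without sub-cluster 12 *Slco2b1*, *Slco1a1* and *Pdzk1* were not. *Abcc2*, a luminal export pump gene, was called lower in UUO under the first and the last of these, *Slc47a1* under the first and *Slco1a6* under the last. *Slc47a1*, which exports cations, was at 266 CPM in control, 235 in UIR and 199.9 in UUO, and was not called with the cells as filtered. The medians of the 20 genes were -0.07 in UIR and -0.30 in UUO. Of 5 transcription factors known for such genes, *Hnf4g* fell in UIR from 21.8 ± 2.91 to 12.3 ± 2.86 CPM (-0.82, edgeR adjusted p = 0.00515), while *Hnf4a* was at 214, 219 and 280 CPM in control, UIR and UUO and was not called. Among the other 16 *Slc22a* genes, 11 could be tested. *Slc22a15* rose in UIR at trace level, from 0.164 to 1.37 CPM (edgeR adjusted p = 0.00690), and *Slc22a29* fell from 4.58 to 1.87 (-1.28, edgeR adjusted p = 0.0174). In UUO *Slc22a28* fell from 130 to 49.2 CPM (-1.79, edgeR adjusted p = 0.00617). These were 1 of 5 factors and 2 of 11 other genes in UIR and 0 and 1 in UUO, beside the shares of all genes given above. With thinned cells *Hnf4g* (-1.32, edgeR adjusted p = 0.206) and *Slc22a28* were not called, *Slc22a15* and *Slc22a29* could not be tested, and without sub-cluster 12 *Slc22a15* could not be tested either.

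The share of PT cells with a UMI was compared at 1 depth. With cells thinned to 1000 UMIs, which left out 252 of the 5351 cells in control, 63 of 1368 in UIR and 22 of 102 in UUO, *Slc22a8* was found in 13.5% ± 0.627 (SD, n = 5) of control and 9.38% ± 2.43 (n = 3) of UIR cells, and in 44.6% and 31.5% before thinning. *Slc22a6* was found in 25.8% ± 3.09 and 26.9% ± 1.18 (53.4% and 54.6% before thinning) and *Slc22a30* in 13.8% ± 2.58 and 12.001% ± 0.668. In UUO2, the 1 UUO library with enough thinned cells, *Slc22a30* was in 5.56% and *Slc22a12* in 50% of cells. The thinned share of control endothelial cells, as a background, was 1.42% for *Slc22a6*, 0.787% for *Slc22a8*, 0.426% for *Slc22a30* and 1.75% for *Slc22a12*. Median depths of PT cells were 3963.5 to 6049 UMIs in control and 3595.5 to 5027 in UIR.

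Across 89 pools of tubular classes and segments, the genes whose log2(CPM + 1) correlated best with each member, among 7364 genes, described the same patterns. *Slc22a7* and *Slc22a19* shared *Mep1b*, a brush border peptidase gene, as the nearest gene (Pearson's r of 0.96 and 0.94). Nearest to *Slc22a6* was *Cml1* (0.94), followed by *Cyp4b1* and *Slc34a1* (0.93 each), and nearest to *Slc22a8* were *Acmsd* (0.91), *G6pc* and *Cela1* (0.90 each). *Khk*, the fructokinase gene, was nearest to *Slc22a2* (0.96), *Akr1c21* to *Slc22a12* (0.97), *Aspdh* to *Slc22a30* (0.95) and *Acp5* to *Slc22a18* (0.89). *Slc22a5* had the weakest likeness (*Tprkb*, 0.78). The pools share libraries and cells of neighbouring clusters, so that these values describe and do not test. The counts of *Slc22a5* are uncertain, since 34.5% of the 50-base words in the last 500 bases of its transcripts are shared with *Slc22a4*, *Slc22a21* or *Gm12220*, as are, to 3.04%, those of *Slc22a30* with *Slc22a28*. The other 7 members share no such word.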

How the data were processed

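The authors deposited raw UMI counts per gene and barcode (Cell Ranger 3.1.0 and mm10 per the labels), without correction for free RNA or doublets; every other step was run here. Barcodes were called as cells against the empty droplets (ranks 45000 to 90000 by UMIs) and kept with at least 500 UMIs, at least 200 genes, at most 30% mitochondrial and at most 5% hemoglobin UMIs. The 7.5% highest doublet scores were removed. Cells were clustered on 2000 variable genes (Leiden resolution 1, igraph 0.11.9, leidenalg 0.10.2) without the members, listed genes or markers, and named by markers. PT-like clusters of low depth, and 2 PT sub-clusters of 328 and 56 cells with markers of other cells among their leading genes, were left out of PT.

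UMIs were summed per library and class (at least 20 cells) and compared with edgeR 4.0.16 (R 4.3.3; TMM, low count filter, quasi-likelihood test, 3 groups in 1 model, Benjamini-Hochberg adjustment over all genes tested). The test was checked on simulated data. A group without a UMI was set at a floor of 3 counts over the group. Bounds, intervals and floors cover counting error only. Total UMIs per library were 49503312 to 117043590. Alternatives were DESeq2 1.42.0, library totals, no low count filter, other mitochondrial, UMI, doublet and clustering settings, subtraction of free RNA, the replicate block and leaving out libraries or control sets. The inclusion of low-depth cells, the omission of sub-cluster 12 or 10, thinned cells and the alternatives for segments and frTECs were chosen after seeing the data. Named genes were the 9 members, those of the partner, factor and other *Slc22a* lists that passed the test, with a few others of these lists for comparison, and the 3 genes most like each member. Members and lists were chosen with earlier results of these data known. Some listed genes are not reported here.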

Additional observations from a re-analysis of the deposited data

Results flagged for a closer look

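Of 36 sets of 5 control values examined for a library far from the others, 9 stood out, all of them the Ctrl library in empty droplets. Chance gives about 1 in 20 for independent sets. The 9 are not independent, since they are genes of the same empty droplets of 1 library. *Slc22a6* had 367 CPM there against 79.0 to 84.5 in the other control libraries, *Slc22a8* 206 against 44.4 to 55.5, and *Slc22a7* 83.1 against 16.6 to 20.6. *Slc22a12* had 381 CPM against 106 to 129, *Slc22a19* 18.03 against 3.84 to 5.42 and *Slc22a30* 179.6 against 27.6 to 35.4. *Slc22a2* had 174 CPM against 30.8 to 36.0, *Slc22a5* 29.6 against 4.88 to 5.93 and *Slc22a18* 278 against 49.2 to 58.8. The 6 PT genes used for free RNA stood apart in the same library, with a sum of 9954 CPM against 2745 to 3322.

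Between UUO and UIR, edgeR called 4 of 10 pairs of member and class tested, all lower in UUO. Of all genes, 2.21% were called in the loop of Henle, 4.4% in principal and 1.06% in intercalated cells. The members called passed the low count filter through the control pools, where they were highest. This count is thus not a result about the members. In the loop of Henle the log2 difference was -3.30 for *Slc22a6* (SE 0.75, edgeR adjusted p = 0.0145) and -2.85 for *Slc22a12* (SE 0.50, edgeR adjusted p = 0.00155). It was -4.66 for *Slc22a6* in principal cells (SE 1.12, edgeR adjusted p = 0.0230) and -5.80 for *Slc22a12* in intercalated cells (SE 1.198, edgeR adjusted p = 0.0188), both fitted against UUO pools without a UMI, so that their size depends on the prior count. In clusters that carry markers of both distal tubule and principal cells, edgeR also called *Slc22a12* (adjusted p = 0.0262) and *Slc22a8* (adjusted p = 0.0195) lower in UUO than in UIR, where 5.35% of genes were called. Both genes were highest in the control pools there too. Free RNA of PT genes in these classes was lower in UUO than in UIR. In the loop of Henle it alone would give 1.32 to 4.50 CPM of *Slc22a6* in UIR and 0.976 to 1.26 in UUO. The pools held 1.39 to 3.16 and 0 to 0.373 CPM. For *Slc22a12* it would give 2.08 to 6.31 and 0.797 to 1.29, against 2.68 to 4.02 and 0.179 to 0.746. After its subtraction neither gene was called against control in loop of Henle, principal or intercalated cells. The difference between the models after subtraction is not reported here.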

How the results depend on the processing

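The number of members called in PT after UIR (1) stayed within 1.5 times under 14 of 30 alternatives. It was 4 without a low count filter, 3 with the replicate block, without control set N or with low-depth cells, 2 at mitochondrial limits of 50% or 15%, with doublets kept, without S1-like and S3-like cells or without set AN, and 0 at resolution 2 or with low-depth cells and free RNA subtracted (0 to 2 without single libraries). In UUO (2) it was 4 with DESeq2, without the filter, without set N, with low-depth cells or without sub-cluster 12, 1 with library totals, at 15%, at 1000 UMIs, with free RNA subtracted or without sets Ctrl or AN, and 0 with thinned cells or without sub-cluster 10, where UUO2 alone was left and UUO is in effect untested (0 to 4 without single libraries). Between UUO and UIR (0) it was 1 with DESeq2 or without set N and 3 without the filter. The distal pairs in UIR (5) were 2 at 15%, with free RNA subtracted or without set N and 1 without set Ctrl (1 to 5 without single libraries), and in UUO (7) 18 without the filter, 4 at 15% and 3 with free RNA subtracted (4 to 9). S1-like calls (5) were 3 with DESeq2 or without sub-cluster 10, 0 at 50%, with doublets kept or without sub-cluster 12, and 1 at resolution 2 or with thinned cells (3 to 5). S3-like calls (3) were 0 at 50% or 15% and 1 at resolution 2, with the replicate block or without set AN (1 to 3). Calls in the unnamed PT cells (2) were 1 at 50% (*Slc22a7*) and 0 at 15% (1 to 2), and in frTECs (0) 1 with doublets kept.

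Directions reversed mostly for values near 0. In PT after UIR, *Slc22a6* turned to 0.14 at 15%, 0.0022 with free RNA subtracted, 0.086 with thinned cells and -0.10 to 0.0422 without single libraries, and *Slc22a2* to -0.0798 at 50%. *Slc22a19* turned to 1.19 at 15%, 0.43 with doublets kept, 0.0065 with free RNA subtracted, 1.46 without S1-like and S3-like cells, 0.037 and 0.22 without sets Ctrl and AN, 0.38 without sub-cluster 12 and -0.50 to 0.20 without single libraries; *Slc22a18* ranged from -0.19 to 0.0331. In UUO, at 50%, *Slc22a6* turned to 0.015, *Slc22a2* to 0.036 and *Slc22a12* to 0.041, the last also to 0.047 with library totals, 0.11 at 1000 UMIs, 0.0044 without set AN, 0.0726 without sub-cluster 10 and -0.50 to 0.0669 without single libraries. In S1-like cells *Slc22a6* turned to -0.34 with doublets kept and at resolution 2 and to -0.077 without sub-cluster 12, and *Slc22a2* to -0.077 at 50%, -0.47 with doublets kept, -0.26 at resolution 2 and -0.16 without sub-cluster 12. In S3-like cells *Slc22a7* turned to 0.046 at 15% and *Slc22a19* to 1.09 at 15% and 0.33 at resolution 2. At 15%, *Slc22a8* in the loop of Henle of UUO turned to 3.87 and *Slc22a18* in intercalated cells to -1.77 (UIR) and -1.51 (UUO). The cause was not tested. With group means removed, same-numbered libraries had correlations of -0.036 to 0.129 in PT, and other pairs of -0.139 to 0.116. The values of UUO1 and UUO2 mirror each other, since these alone make up their group. Whether the replicate numbers pair the libraries thus cannot be told from them. The UUO values in PT rest on few cells (18, 24 and 60 per library).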
